A study of Mus musculus with 8 samples.

Results

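Histone H3 lysine 27 acetylation (H3K27ac) was examined at 4 genes of the SWI/SNF chromatin remodelling complex, Arid1a, Arid1b, Smarca4 and Smarca2, in the mouse pancreatic acinar line 266-6. The loci were taken as fixed windows of the mm9 genome, chr4:133215000-133335000 for Arid1a, chr17:4970000-5370000 for Arid1b, chr9:21390000-21530000 for Smarca4 and chr19:26650000-26880000 for Smarca2. Every deposited peak that overlapped a window was taken, and peaks of different libraries that shared at least 1 bp were merged to a region. Of 33920 regions in all, 41 lay in these windows, 9 at Arid1a, 19 at Arid1b, 6 at Smarca4 and 7 at Smarca2. Regions are numbered within each window from its lower coordinate. The windows are set by coordinates and not computed from measured values, but they were chosen with earlier results of these data known.

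The series asked how silencing of Arid1a and treatment with epidermal growth factor (EGF) change the H3K27ac landscape of acinar cells. There were 4 groups of 2 libraries each, all from 266-6 cells, a transformed line from a mouse pancreatic tumour. The control group received a non-targeting siRNA and the vehicle of 0.1% bovine serum albumin (BSA), and the EGF group received the same siRNA and EGF at 40 ng/ml. The Arid1a knockdown group received siRNA against Arid1a and the vehicle, and the knockdown with EGF group received that siRNA and EGF. In every group the siRNA was used at 25 nM for 48 h, serum was withdrawn overnight, and EGF or vehicle was given for 8 h. The labels name 2 siRNA reagents under the capitalised symbol ARID1A and do not give their sequences or the species they were designed for. The knockdown was transient, and the level of Arid1a RNA or protein was not analysed here; acetylation at the Arid1a locus does not measure it. The labels call the libraries duplicates with no word on whether separate cultures were used, so the p-values here reflect the spread between libraries alone, and that spread may be technical. Fewer cells with the mark and less of the mark per cell cannot be told apart in such samples. Acinar markers need positions in mm9 and were not analysed here.

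SWI/SNF complexes use the energy of ATP to slide and evict nucleosomes. Each complex holds either SMARCA4 (also called BRG1) or SMARCA2 (BRM) as its ATPase, and the BAF form of the complex holds either ARID1A or ARID1B. The members of each pair are paralogues that do not sit in the same complex, and several kinds of tumour cell that lack ARID1A depend on ARID1B. ARID1A is recurrently mutated in pancreatic ductal cancer, and EGF receptor signalling promotes the change of acinar cells to a duct-like state. H3K27ac marks active promoters and enhancers.

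The promoter stretches recorded for these genes by RefSeq (build GRCm38.p6) are shown because they are where each gene is recorded to start; all 4 genes were matched by symbol. Only bases that lie before the first base of the gene are printed, 250 for Arid1a, 187 for Smarca4 and 163 for Smarca2. All 250 bases before the start recorded for Arid1b lie inside its own gene span, and none is printed. Capitals mark matches to motifs of factor families that act at such promoters or downstream of EGF: the GC box GGGCGG (SP/KLF factors), CCGGAAG (ETS factors) and TGANTCA (AP-1), searched on both strands. No marked match overlaps another.
Arid1a, chr4:133756770-133757019, minus strand: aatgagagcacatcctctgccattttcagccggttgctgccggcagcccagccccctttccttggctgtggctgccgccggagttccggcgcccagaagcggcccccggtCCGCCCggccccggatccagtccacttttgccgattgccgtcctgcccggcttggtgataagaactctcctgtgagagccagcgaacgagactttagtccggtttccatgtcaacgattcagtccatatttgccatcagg
Smarca4, chr9:21615919-21616105, plus strand: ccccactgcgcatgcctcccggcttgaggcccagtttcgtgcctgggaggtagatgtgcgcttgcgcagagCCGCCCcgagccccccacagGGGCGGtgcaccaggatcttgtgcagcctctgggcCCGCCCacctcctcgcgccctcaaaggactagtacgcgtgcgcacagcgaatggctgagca
Smarca2, chr19:26604910-26605072, plus strand: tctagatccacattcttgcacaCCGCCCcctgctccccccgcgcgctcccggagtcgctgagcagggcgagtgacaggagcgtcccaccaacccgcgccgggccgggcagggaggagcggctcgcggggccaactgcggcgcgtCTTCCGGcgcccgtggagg
The AP-1 match of the Smarca2 promoter entry lies after the start, at base 29 of the transcript, and is shown with its flanks because no other of the 4 genes has one.
Smarca2, AP-1 stretch: tgtactctgggTGACTCAgagagggaagat

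Over the full 300-base entries, from 250 bases before to 50 after the start, the GC box was found 1 time at Arid1a, 1 time at Arid1b, 3 times at Smarca4 and 2 times at Smarca2. A further start recorded for Arid1a, inside the gene, had 7. Smarca2 had 1 match to the ETS motif, and the other 3 genes had 0 matches to it and to the AP-1 motif. Among 32851 promoter entries of the same length, 35.7% held a GC box, 8.86% the ETS motif and 7.81% the AP-1 motif. A match describes the letters alone and not the binding of a factor. These entries are in another build than the peaks, so they were not aligned with the regions, and no region is assigned to an exon, intron or promoter. A window may reach past its gene, and which regions lie inside the gene was not determined. A region numbered under a gene is thus a region of its window and may belong to a neighbouring gene. The non-targeting siRNA that stands behind every control and EGF value is given by the labels.
Non-targeting siRNA: ugguuuacaugucgacuaa

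The deposited lists held 22030 to 28281 peaks and covered 33.89 to 48.67 Mb, and the median fold enrichment of a list was 4.59 to 4.92. Fold enrichment is the authors' value for each peak, a ratio over the background of the peak caller. Both knockdown lists and the list of control replicate 2 were the longest, at 26844, 27558 and 28281 peaks, and the other 5 held 22030 to 23256. Read depth is unknown. Covered length, the number of base pairs under peaks, is therefore given as bp and, where this changes a comparison, as bp per Mb covered in the same list.

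Covered length was lower with EGF at Smarca2, where EGF-treated libraries had 0.706 times the vehicle value, and higher with Arid1a siRNA at Smarca4, by 1.21 times. The EGF ratios were 0.7 at Arid1a, 0.643 at Arid1b and 0.995 at Smarca4, and the knockdown ratios 1.32 at Arid1a, 1.18 at Arid1b and 0.975 at Smarca2. Of 8 window tests, exact two-sided permutation over the 70 assignments of 4 libraries to each side, 2 reached the smallest p the design allows, 0.0286, which is not adjusted for the 8 tests: Smarca2 by EGF and Smarca4 by knockdown. Of 8567 tiles of 100 kb with peaks in all 8 libraries, 1528 had all 4 EGF-treated libraries below all 4 vehicle libraries and 137 above. Likewise, 343 had all 4 knockdown libraries above all 4 others and 86 below. The windows are longer than these tiles, at 120 to 400 kb, so the tiles are not a matched background for them.

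**Figure D1:**
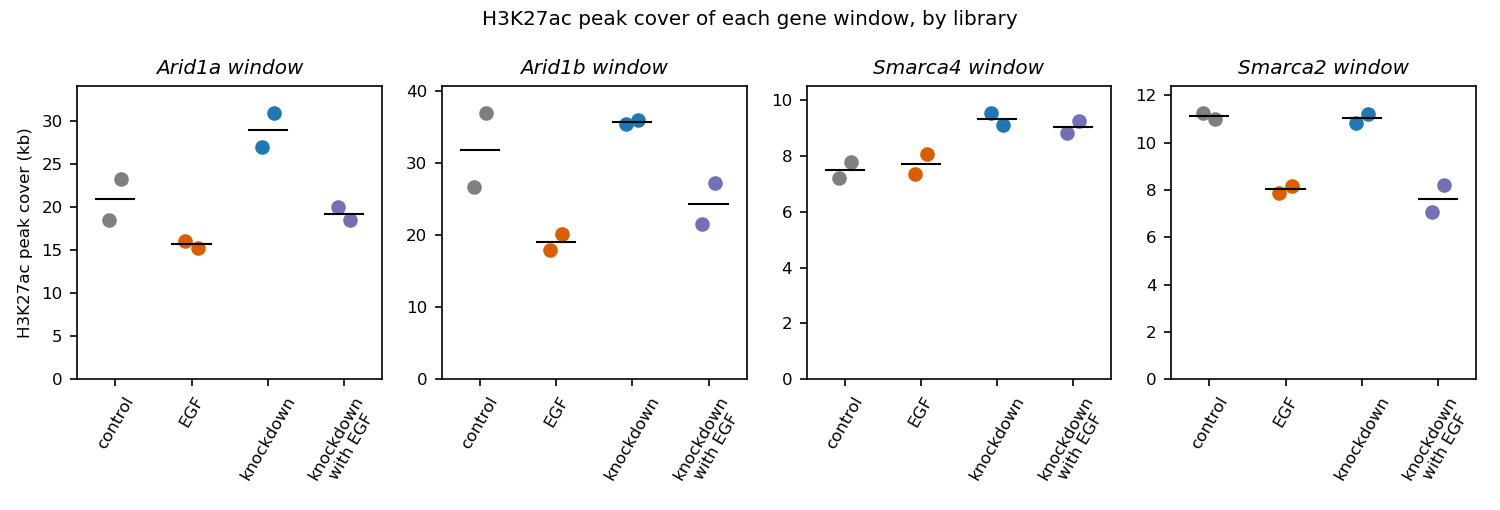
Covered length in each gene window (kb, vertical axis from 0, a scale of its own for each gene) for each of the 8 libraries by group (horizontal axis); points are libraries and bars are group means of 2. Smarca2 separates the EGF-treated from the vehicle libraries and Smarca4 the knockdown from the non-targeting libraries without overlap.

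Arid1a, the target of the knockdown, encodes the DNA-binding ARID subunit of the BAF complex. Its window kept 7 of 9 regions in all 8 libraries, and the other 2 were missing from 1 library each. Peaks covered 18509 and 23280 bp in the control libraries, 16058 and 15270 bp with EGF, 27029 and 30969 bp after knockdown, and 20031 and 18454 bp after knockdown with EGF. In each EGF state both knockdown libraries were above both non-targeting libraries, and all 9 regions had a peak in all 4 knockdown libraries. The means were 24121 ± 5893 bp with knockdown and 18279 ± 3608 bp without (SD, n = 4 each; exact two-sided permutation p = 0.2). With assignments kept within the EGF states the exact p was 0.0556, the smallest that 36 assignments allow. Per Mb covered the means were 576.5 and 484.2 (exact permutation p = 0.0571).

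For EGF at Arid1a the means were 17453 ± 2188 bp in EGF-treated and 24947 ± 5318 bp in vehicle libraries (SD, n = 4 each; exact two-sided permutation p = 0.0571). The groups overlapped through control replicate 1, whose 18509 bp lay under the 20031 bp of knockdown with EGF replicate 1. Leaving out control replicate 1 removes that overlap, and the exact p was then 0.0286, the smallest that 4 against 3 libraries allow. With any other library left out the exact p was 0.0571 to 0.114. Per Mb covered the means were 497.6 and 563.1 (exact permutation p = 0.229), a ratio of 0.884 in place of 0.7.

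The broadest and highest region of the Arid1a window was region 9 (chr4:133306185-133314070). Peaks covered 6633 and 6309 bp of it in control, 6092 and 5572 bp with EGF, 7772 and 6928 bp after knockdown, and 6642 and 6672 bp after knockdown with EGF. All 4 knockdown libraries lay above all 4 others, at 7004 ± 528 against 6152 ± 446 bp (SD, n = 4 each), which in limma's test was 0.18 ± 0.06 on the log2(bp + 200) scale (SE; adjusted p = 0.201 over 28146 regions). Its fold enrichment was 9.86 and 13.53 in control, 10.02 and 11.11 with EGF, 14.31 and 14.16 after knockdown, and 10.59 and 9.98 after knockdown with EGF. In both EGF libraries the region was called as 2 peaks, with gaps of 1014 and 1003 bp, and in the other 6 libraries as 1 peak. The regions elsewhere in the genome whose covered length was most like it over the 8 libraries were chr11:115280651-115284592 and chr6:48393571-48395630 (Pearson r = 0.967 and 0.965 over 8 libraries, the highest of 16587 regions searched). These r are a description, since the points share the libraries and their total cover.

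Region 2 of the Arid1a window (chr4:133226218-133229848), picked out after its values were seen, was narrower and nearly as high. Its fold enrichment was 10.33 and 13.85 in control, 6.08 and 7.37 with EGF, 16.77 and 15.21 after knockdown, and 8.93 and 9.32 after knockdown with EGF. Every EGF-treated library was below every vehicle library, at 7.92 ± 1.5 against 14.04 ± 2.75 (SD, n = 4 each), and in each EGF state both knockdown libraries were above both others. Fold is set over each library's own background, so it was not tested between libraries. Within their own lists, these peaks stood at the 99.3 percentile or above in the 4 vehicle libraries and between the 79.5 and 95.9 percentile in the 4 EGF-treated ones, while region 9 stood at the 97.4 percentile or above in all 8.

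Region 1 (chr4:133215716-133217530), a low peak at the lower edge of the window, was the only region of the Arid1a window that passed limma's test for EGF. Peaks covered 1023 and 1229 bp of it in control, 653 and 528 bp with EGF, 1342 and 1815 bp after knockdown, and 628 and 720 bp after knockdown with EGF. The EGF-treated libraries did not overlap the vehicle libraries. The mean EGF effect over both siRNA states was -0.88 ± 0.15 (log2, SE; limma adjusted p = 0.0209). The call was lost without either EGF replicate, knockdown replicate 2 or either replicate of knockdown with EGF (adjusted p 0.0513 to 0.0739), and under quantile normalization (-0.58, adjusted p 0.0814). Its fold stayed between 3.41 and 3.81 in all 8 libraries, while its covered length was lower with EGF.

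**Figure D2:**
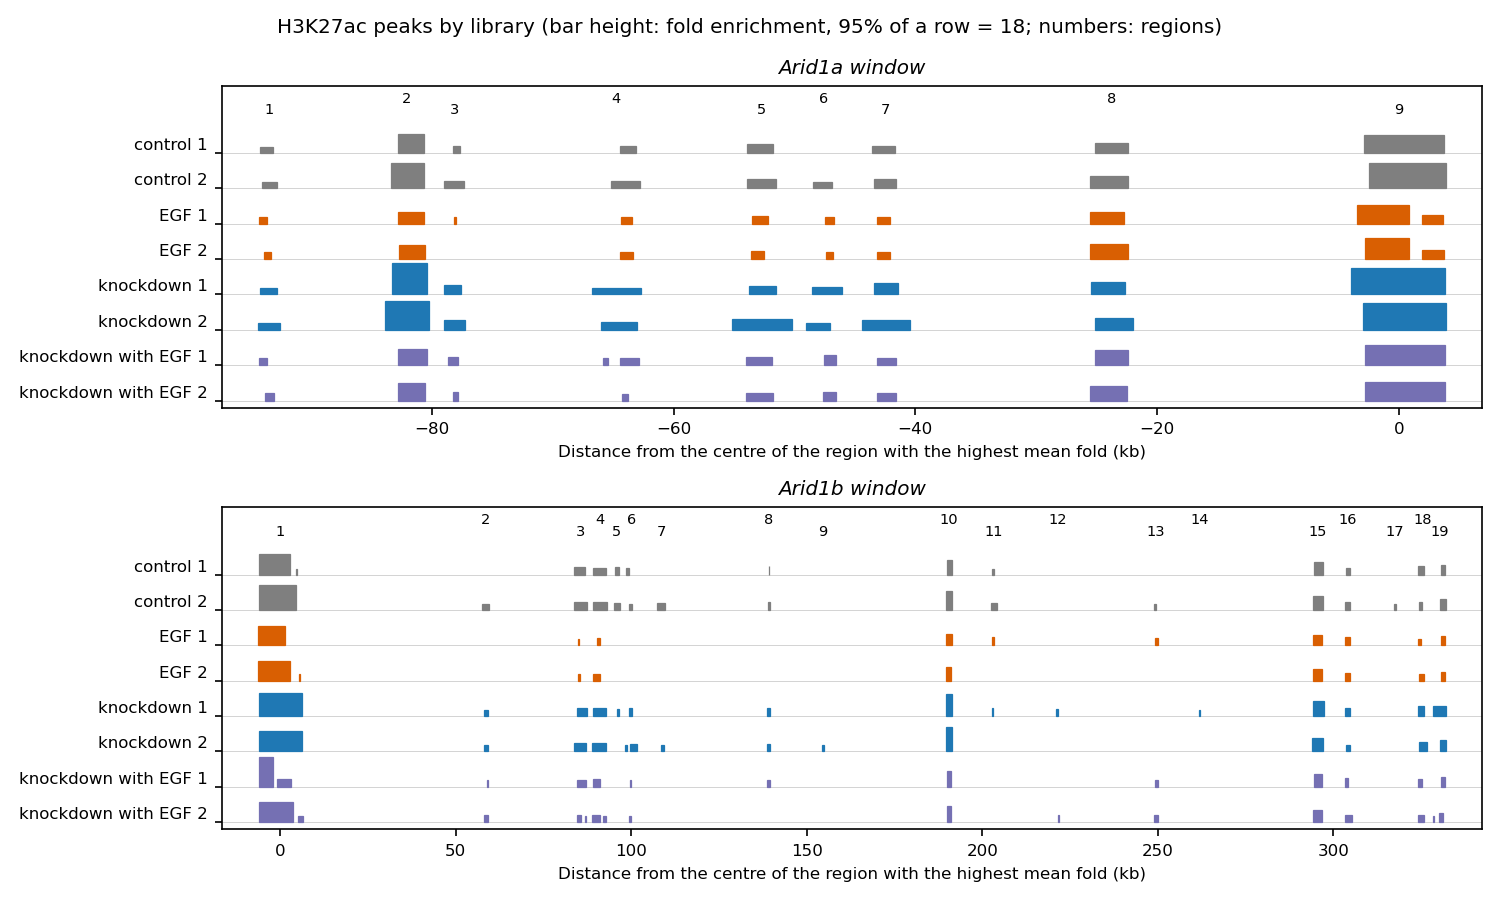
Peaks of the 8 libraries (rows) along the Arid1a and Arid1b windows, by distance from the centre of the region with the highest mean fold (kb, horizontal axis); each block spans a called peak and its height is the authors' fold enrichment, with 18 filling 95% of a row. Arid1a regions 2 and 9 and Arid1b region 1 stand in every row, and Arid1b regions 3 to 6 are short or missing in the EGF rows.

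Arid1b, which can take the place of ARID1A in the complex, had 19 regions, and 8 of them were present in every library. Regions 9, 14 and 17 had a peak in 1 library only. Peaks covered 26617 and 36976 bp of the window in control, 17937 and 20093 bp with EGF, 35409 and 35891 bp after knockdown, and 21522 and 27244 bp after knockdown with EGF. For EGF the means were 21699 ± 3979.5 bp in EGF-treated and 33723 ± 4783 bp in vehicle libraries (SD, n = 4 each; exact two-sided permutation p = 0.0571). The groups overlapped only through control replicate 1 and knockdown with EGF replicate 2. Leaving out control replicate 1 removes that overlap, and the exact p was then 0.0286, the smallest that 4 against 3 libraries allow. With any other library left out the exact p was 0.0571 to 0.0857. With stricter peaks and with lists cut to equal length it was 0.0286. By knockdown the means were 30016.5 ± 6914.5 and 25406 ± 8551 bp (exact two-sided permutation p = 0.4). That spread includes the difference between EGF states. With assignments kept within the EGF states the exact p was 0.222. With EGF both knockdown libraries were above both non-targeting libraries, and without EGF they overlapped. A difference of the paralogue with knockdown of Arid1a was thus not detected in either test.

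The start of the window held the highest and widest Arid1b region, region 1 (chr17:4993078-5005902, 12825 bp). Peaks covered 9204 and 10732 bp of it in control, 7670 and 9323 bp with EGF, 12425 and 12367 bp after knockdown, and 7834 and 11001 bp after knockdown with EGF. The knockdown libraries without EGF covered the most, and the other groups overlapped. In limma's test the mean EGF effect was -0.32 ± 0.13 (log2, SE; adjusted p = 0.147) and the mean knockdown effect 0.22 ± 0.13 (adjusted p = 0.445). Its fold enrichment was 11.2 and 13.15 in control, 10.51 and 10.41 with EGF, 12.19 and 11.08 after knockdown, and 15.73 and 10.93 after knockdown with EGF, with no order between the groups. The regions most like it in covered length were chr4:58937901-58940639 and chr3:142427682-142429297 (r = 0.985 and 0.978 over 8 libraries, as a description).

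The 3 Arid1b regions that passed the test for the mean EGF effect lay in a cluster of low peaks, regions 3 to 6 (chr17:5083155-5101243). Region 3 (chr17:5083155-5086875) was covered over 3118 and 3638 bp in control, 506 and 519 bp with EGF, 2822 and 3447 bp after knockdown, and 2357 and 1355 bp after knockdown with EGF. EGF alone left a short remnant in both libraries, and EGF after knockdown left values between. In limma's test EGF against control was -2.32 ± 0.24 (log2, SE; adjusted p = 0.0214), and the mean EGF effect was -1.53 ± 0.17 (adjusted p = 0.00727). The mean effect passed with any 1 of the 8 libraries left out (adjusted p 0.0116 to 0.035), and did not with stricter peaks, those with a −log10 q of at least 3 (-3.09, adjusted p 0.0911). EGF against control was lost without either EGF replicate or either knockdown replicate (0.0509 to 0.107), with stricter peaks (0.496) and with a replicate block (0.0551).

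Region 3 had the smallest adjusted p for the interaction among the 34 regions tested in the windows. With EGF, the knockdown libraries covered 1856 bp on average and the non-targeting libraries 512.5 bp, a difference of 1.48 ± 0.24 (log2, SE; limma adjusted p = 0.0752), whereas without EGF the means were 3134.5 and 3378 bp (-0.1 ± 0.24, adjusted p = 0.904). The test of the difference itself, the interaction, gave 1.59 ± 0.34 (adjusted p = 0.192). With a pseudocount of 50 in place of 200 bp the difference with EGF was 1.71 with a limma adjusted p of 0.0461, the only setting in which it passed. The interaction passed the threshold in 0 of 28146 regions tested.

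Regions 4 and 6 passed for the mean EGF effect as well. Region 4 (chr17:5088230-5092670) was covered over 3708 and 4137 bp in control, 1010 and 2203 bp with EGF, 3708 and 4002 bp after knockdown, and 2161 and 2892 bp after knockdown with EGF, so that all EGF-treated libraries were below all vehicle libraries. Its mean EGF effect was -0.93 ± 0.22 (log2, SE; limma adjusted p = 0.0484), and the call was lost without any 1 of the control, knockdown or knockdown with EGF libraries (adjusted p 0.0732 to 0.139). It was also lost with a pseudocount of 50 bp (adjusted p 0.0545), without the filter on regions (0.0526), with stricter peaks (0.265) and under quantile normalization (0.0517). Region 6 (chr17:5097755-5101243) had no peak in either EGF library, 806 and 641 bp in control, 895 and 2687 bp after knockdown, and 313 and 519 bp after knockdown with EGF. Its mean EGF effect of -1.88 ± 0.36 (adjusted p = 0.0264) depends on the pseudocount because of the values at 0, and was lost without either EGF replicate, knockdown replicate 2 or either replicate of knockdown with EGF (adjusted p 0.0543 to 0.0851). It was also lost with a larger pseudocount of 1 kb (-0.84, adjusted p 0.0526), lists of equal length (0.12) and quantile normalization (0.142). Region 5 (chr17:5094587-5096269), picked out after its values were seen, lay between them and had no peak in any of the 4 EGF-treated libraries. It was covered over 992 and 1683 bp in control and over 605 and 0 bp after knockdown, and its limma adjusted p for the mean EGF effect was 0.0502.

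Changes in the presence of a peak were called at 6 regions, 5 of them at Arid1b. A region was called lost where both libraries of the reference group and neither of the other had a peak, and gained in the reverse case, without a test since 2 against 2 allow no exact p under 0.333. Of the 41 regions, EGF against control lost 4, against 4.26% of all regions, and gained 0, against 2.00%: Arid1b 5, 6 and 8 and Smarca2 region 2 (chr19:26687474-26688403). Region 8 of Arid1b (chr17:5138084-5138961) was covered over 202 and 434 bp in control, 851 and 840 bp after knockdown, 824 and 0 bp after knockdown with EGF, and 0 in both EGF libraries. After knockdown, EGF gained 1 region, Arid1b 13 (chr17:5248489-5249537), against 0.996% of all regions, and lost 0, against 8.40%. Between knockdown with EGF and EGF, 2 regions were gained, Arid1b 6 and Arid1b 2 (chr17:5056852-5058908), against 2.02%, and 0 were lost, against 2.34%. Knockdown against control changed 0 of the 41, where 3.04% of all regions were gained and 0.778% lost, and no region of the 41 had a peak in all 4 libraries on one side of EGF or knockdown and in 0 on the other, where EGF gained 0.404% and lost 1.61% of all regions in that way and knockdown gained 0.259% and lost 0.130%. None of these calls splits the 4 EGF-treated or the 4 knockdown libraries cleanly: for example, Arid1b 2 also had a peak in control replicate 2, and Arid1b 13 in control replicate 2 and EGF replicate 1.

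The Arid1b region next in mean fold after region 1, region 10 (chr17:5189009-5190864), was picked out after its values were seen. Its fold enrichment was 7.6 and 10.33 in control, 5.99 and 7.13 with EGF, 11.74 and 13.21 after knockdown, and 8.55 and 8.34 after knockdown with EGF. As at Arid1a region 2, both knockdown libraries were above both non-targeting libraries in each EGF state. Its covered length ran from 1270 to 1757 bp, lowest in both libraries of knockdown with EGF, and knockdown with EGF against knockdown was -0.38 ± 0.11 (log2, SE; limma adjusted p = 0.0995).

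**Figure D3:**
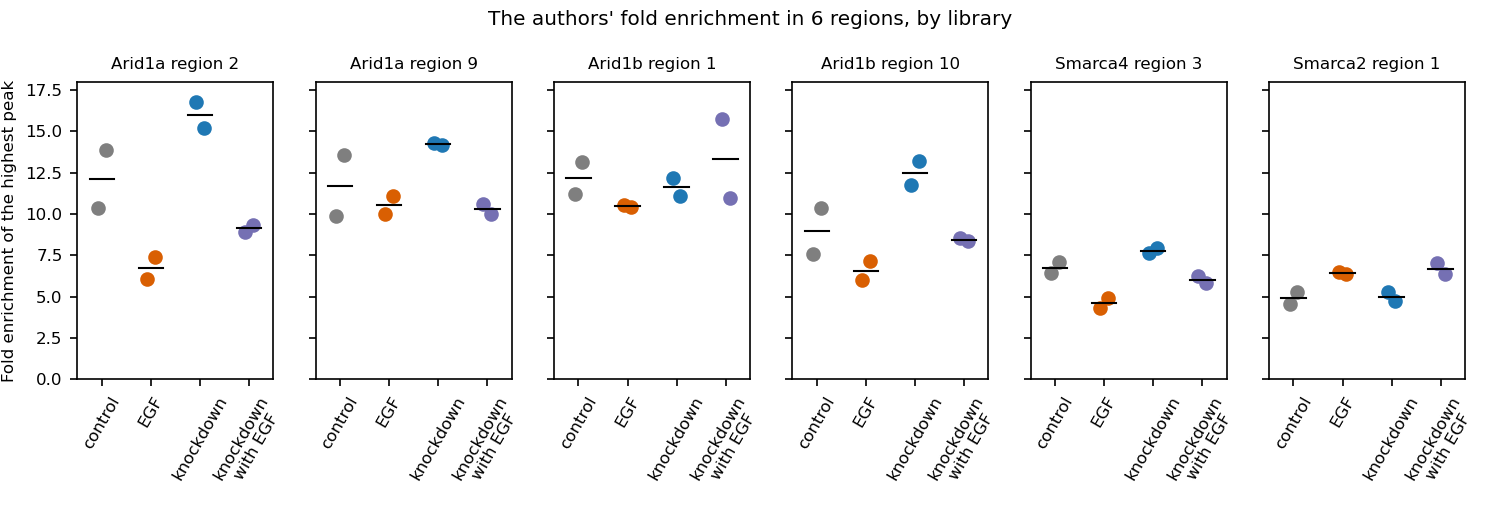
The authors' fold enrichment (vertical axis from 0) of the highest peak in 6 regions, Arid1a 2 and 9, Arid1b 1 and 10, Smarca4 3 and Smarca2 1, for each library by group; points are libraries and bars are group means of 2. Arid1a 2 and Smarca4 3 are lower and Smarca2 1 is higher in all 4 EGF-treated libraries than in all 4 vehicle libraries.

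Smarca4 encodes BRG1, the main ATPase of most SWI/SNF complexes in dividing cells. Its window had 3 regions with a peak in all 8 libraries, and 3 more that each had a peak in 1 library, in each case a knockdown library. Peaks covered 7201 and 7783 bp in control, 7330 and 8067 bp with EGF, 9541 and 9104 bp after knockdown, and 8808 and 9242 bp after knockdown with EGF. Every knockdown library was above every non-targeting library. The means were 9174 ± 304.5 and 7595 ± 401.5 bp (SD, n = 4 each; exact two-sided permutation p = 0.0286). Per Mb covered the means were 225.3 and 204.6 (exact permutation p = 0.371), so the call did not hold on that scale.

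EGF left the Smarca4 window almost level, at 8362 ± 842 against 8407 ± 1098 bp (SD, n = 4 each; exact two-sided permutation p = 0.943). The EGF-treated lists covered 33.89 to 36.8 Mb in all. Control replicate 1 covered 34.32 Mb, and the other vehicle lists 46.33 to 48.67 Mb. The window's share was higher with EGF, 238 ± 19.4 against 191.9 ± 20.6 bp per Mb covered (exact two-sided permutation p = 0.0286). The direction therefore depends on the scaling, and the 3 other windows did not turn in this way with EGF.

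Within the window, region 3 (chr9:21418908-21421838) was wider in the knockdown libraries. It was covered over 2138 and 2363 bp in control, 2286 and 2139 bp with EGF, 2768 and 2828 bp after knockdown, and 2539 and 2594 bp after knockdown with EGF. All 4 knockdown libraries were above all 4 others, a mean difference of 0.25 ± 0.06 (log2, SE; limma adjusted p = 0.116), the smallest adjusted p for the mean knockdown effect among the regions tested in the 4 windows. Its fold was 6.41 and 7.07 in control, 4.31 and 4.94 with EGF, 7.63 and 7.93 after knockdown, and 6.23 and 5.84 after knockdown with EGF. Every EGF-treated library was below every vehicle library in fold, and in each EGF state both knockdown libraries were above both others. Region 3 was picked out after these values were seen. Region 6 runs past the upper end of the window, and with it left out, cover of the window was still higher with knockdown, by 822.8 bp (exact two-sided permutation p = 0.0286). Part of this came from the regions seen in 1 library each, of 520 and 679 bp in knockdown replicate 1 and 406 bp in knockdown with EGF replicate 2.

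**Figure D4:**
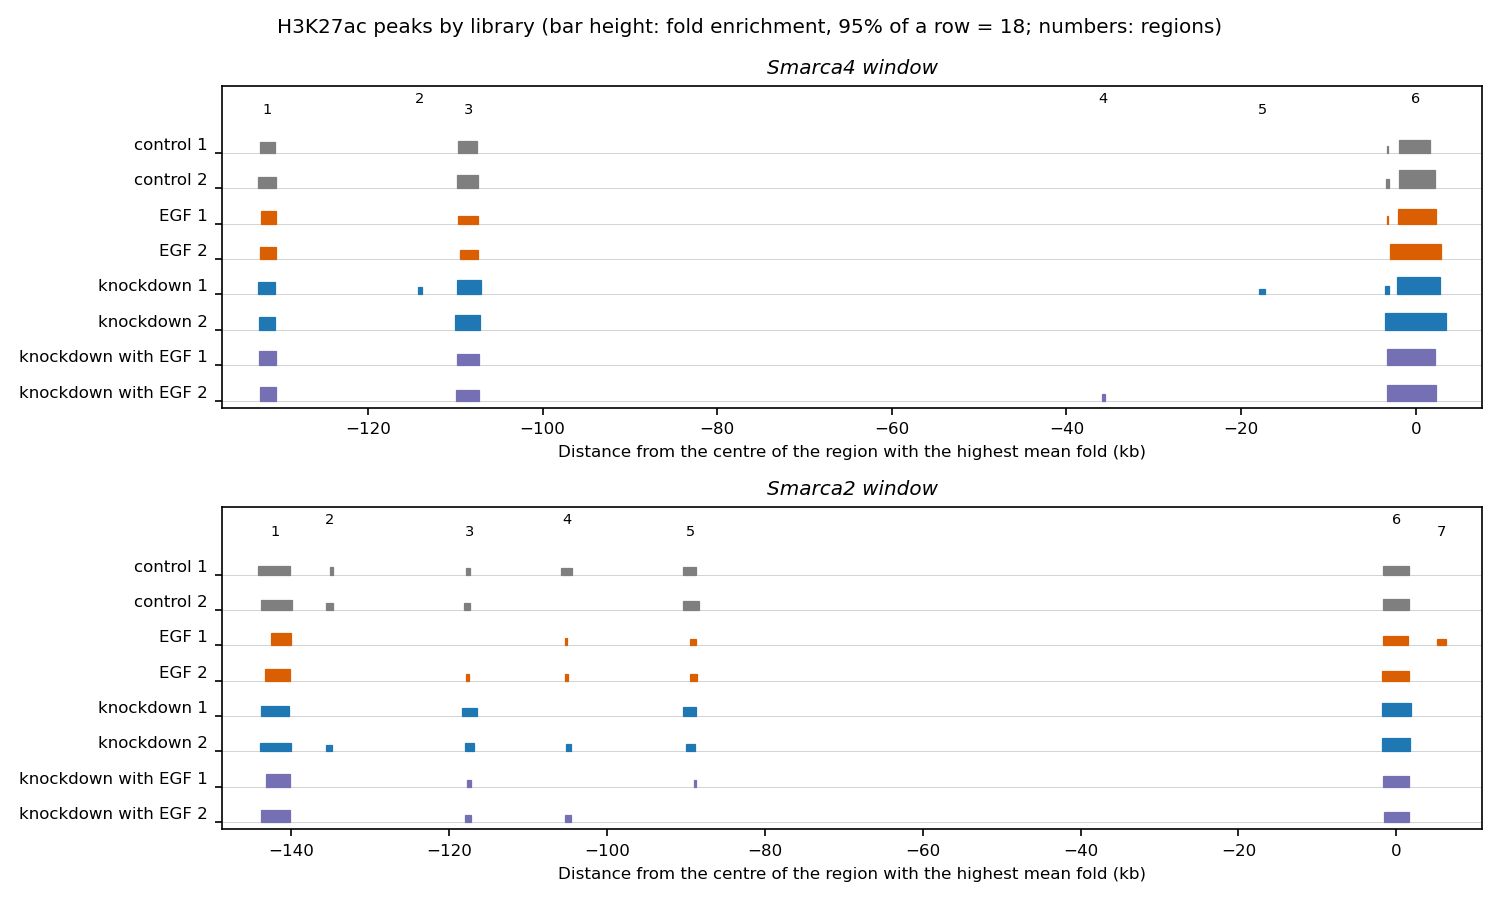
Peaks of the 8 libraries (rows) along the Smarca4 and Smarca2 windows, by distance from the centre of the region with the highest mean fold (kb, horizontal axis); each block spans a called peak and its height is the authors' fold enrichment, with 18 filling 95% of a row. Smarca4 regions 1, 3 and 6 stand in every row, and Smarca2 region 5 is short or missing in the rows with EGF.

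Smarca2 encodes BRM, the alternative ATPase, which rises in many differentiated cells. It had 7 regions, 2 of them present in all 8 libraries and 1, region 7, with a peak in EGF replicate 1 alone. Peaks covered 11271 and 11018 bp in control, 7884 and 8170 bp with EGF, 10852 and 11234 bp after knockdown, and 7080 and 8204 bp after knockdown with EGF. The vehicle libraries lay between 10852 and 11271 bp, and every EGF-treated library was below them. The means were 7834.5 ± 523 and 11094 ± 196 bp (SD, n = 4 each; exact two-sided permutation p = 0.0286), a ratio of 0.706. Per Mb covered the means were 223.1 ± 11.7 and 256.7 ± 47.8 (SD, exact permutation p = 0.0571). Control replicate 1 stood at 328.4 bp per Mb, and the other vehicle libraries at 230.8 to 234.3. The EGF-treated libraries ran from 206.7 to 232.6, so the groups overlapped on that scale. By knockdown the window was level, at 9342.5 ± 2022.5 against 9586 ± 1807 bp (exact two-sided permutation p = 0.743).

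Region 5 of Smarca2 (chr19:26732656-26734716) passed the test for the mean EGF effect. It was covered over 1644 and 2061 bp in control, 729 and 823 bp with EGF, 1629 and 1215 bp after knockdown, and 212 and 0 bp after knockdown with EGF. EGF-treated libraries were below vehicle libraries in both siRNA states, and the lowest values came after knockdown with EGF. Knockdown with EGF against knockdown was -2.49 ± 0.38 (log2, SE; limma adjusted p = 0.0225), and the mean EGF effect was -1.78 ± 0.27 (adjusted p = 0.0147). EGF against control was -1.07 ± 0.38 (adjusted p = 0.209) and did not pass. The call for knockdown with EGF against knockdown was lost without any 1 of the 6 libraries outside the control group (adjusted p 0.0524 to 0.131), and that for the mean effect without EGF replicate 1 or knockdown replicate 1 (0.0547 and 0.0561). With stricter peaks both were lost (0.562 and 0.333), and under quantile normalization the former was (0.0596). The interaction was -1.42 ± 0.54 (adjusted p = 0.5).

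Covered length and fold of Smarca2 region 1 (chr19:26678822-26683210) differed in opposite directions with EGF. Its covered length was 4016 and 4002 bp in control, 2520 and 3168 bp with EGF, 3671 and 3858 bp after knockdown, and 3039 and 3651 bp after knockdown with EGF, lower in every EGF-treated than in every vehicle library (mean EGF effect -0.32 ± 0.09, log2, SE; limma adjusted p = 0.0719). Its fold enrichment was 4.54 and 5.28 in control, 6.5 and 6.38 with EGF, 5.26 and 4.72 after knockdown, and 7.01 and 6.38 after knockdown with EGF. The called peak was thus shorter in all 4 EGF-treated libraries, with a higher fold, at 6.57 ± 0.3 against 4.95 ± 0.38 (SD, n = 4 each). Fold is a value per called peak, so it may not be independent of covered length. Whether the peak itself was taller was not tested.

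The highest Smarca2 region by mean fold, region 6 (chr19:26821198-26824824), kept its width. It was covered over 3172 to 3627 bp in all 8 libraries, and the mean EGF and knockdown effects were -0.09 ± 0.05 and 0.05 ± 0.05 (log2, SE; limma adjusted p = 0.247 and 0.622), which turned to 0.13 and -0.06 under quantile normalization. Its fold was 4.64 and 6 in control, 4.83 and 5.37 with EGF, 7.11 and 7.29 after knockdown, and 5.79 and 5.56 after knockdown with EGF, highest in the knockdown libraries without EGF. The regions most like it in covered length were chr1:173351392-173356780 and chr14:25887791-25889927 (r = 0.987 for both over 8 libraries, as a description).

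Over the 4 loci together, 34 of the 41 regions had a peak in at least 2 libraries and were tested by limma across all 28146 such regions with Benjamini-Hochberg adjustment. For EGF against control 1 of the 34 passed, Arid1b 3, lower, where 3.95% of all regions passed, 2.90% lower and 1.05% higher. For knockdown with EGF against knockdown 1 passed, Smarca2 5, lower, where 6.62% of all regions passed, 6.00% lower and 0.622% higher. For the mean EGF effect 5 passed, all lower, where 13.0% of all regions passed, 11.2% lower and 1.79% higher. Read against that background, 5 of 34 is near the share of all regions and is not a result about these genes. With stricter peaks none of the 5 passed, and 2 others did: Smarca2 3, lower (-1.55, limma adjusted p = 0.00695), and Arid1a 6, higher (1.31, adjusted p = 0.00423). At that cut Smarca2 3 kept peaks only in the knockdown group and Arid1a 6 only in the knockdown with EGF group. With 1 library left out the count ran from 2 to 8, the latter without control replicate 1. The median mean EGF effect was -0.43 over the 34 and -0.25 over all regions, and 32 of the 34 values were negative.

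No region of the 34 passed for knockdown in this fit. For knockdown against control limma called 0, where 1.37% of all regions were called, 1.09% higher and 0.274% lower. For knockdown with EGF against EGF it called 0, where 0.661% were called, 0.234% higher and 0.426% lower. For the mean knockdown effect it called 0, where 0.352% were called, 0.213% higher and 0.139% lower. For the interaction it called 0, where 0.00% were called. At an unadjusted limma p under 0.05 the counts among the 34 were 4, 4, 10 and 2, in that order. Among all 28146 regions they were 3576, 3047, 5038 and 2525. Other settings did make calls, also in the window of the knockdown target. With stricter peaks, knockdown against control was called at Arid1a 3 (3.14, limma adjusted p = 0.0497) and Smarca2 3 (3.1, 0.0043), knockdown with EGF against EGF at Arid1a 6 (2.62, 0.00353), and the mean knockdown effect at Arid1a 6 (1.31, 0.00814) and Smarca2 3 (1.55, 0.012). Without control replicate 2, the 1 control library with a peak in Arid1a 6, knockdown against control was called there (3.59, adjusted p = 0.0169) and at Arid1b 2 (2.84, 0.04), and the mean knockdown effect at both (2.03, 0.0187 and 2.49, 0.0263) and at Smarca4 3 (0.28, 0.0425). These were higher with knockdown, and Arid1a 3 and 6, Smarca2 3 and Arid1b 2 lacked a peak in at least 1 library, so their sizes depend on the pseudocount. Among stricter peaks, Arid1a 6 kept a peak only in the libraries of knockdown with EGF (−log10 q 4.86 and 4.04). Smarca2 3 kept a peak only in those of knockdown without EGF (3.36 and 3.4). In all other libraries the stricter cover of Arid1a 6 and Smarca2 3 was 0, so their calls rest on presence at that cut. At Arid1a 3 the control peaks (−log10 q 2.18 and 2.79) fell under the cut, and the knockdown peaks (5.13 and 5.19) did not. Its call for knockdown against control thus rests on presence as well. In the full lists that difference was 0.54 (log2, limma adjusted p = 0.726).

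The median mean knockdown effect was 0.25 over the 34 and 0.11 over all regions. In the window of the knockdown target 8 of 9 values were positive and 0 negative, rounded to 2 decimals.

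Among the 20 regions with a peak in all 8 libraries, 5 were covered less in every EGF-treated than in every vehicle library, where 15.8% of 16607 such regions genome-wide were, and 0 were covered more (1.94% genome-wide). These were Arid1a 1 and 7, Arid1b 3 and 4 and Smarca2 1. Fold was lower without overlap in 6 (17.5% genome-wide), Arid1a 2 and 5, Arid1b 3, 18 and 19 and Smarca4 3, and higher in 1, Smarca2 1 (6.11% genome-wide). With knockdown 2 were covered more without overlap, Arid1a 9 and Smarca4 3 (4.95% genome-wide), and none less (0.867%). No region of the 20 separated the knockdown from the non-targeting libraries by fold, where 8.70% genome-wide were higher and 0.891% lower. The 5 regions called for the mean EGF effect had a mean fold of 3.53 to 4.13, and Arid1a 9 and Arid1b 1, the widest of their windows with mean folds of 11.7 and 11.9, passed in no contrast.

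**Figure D5:**
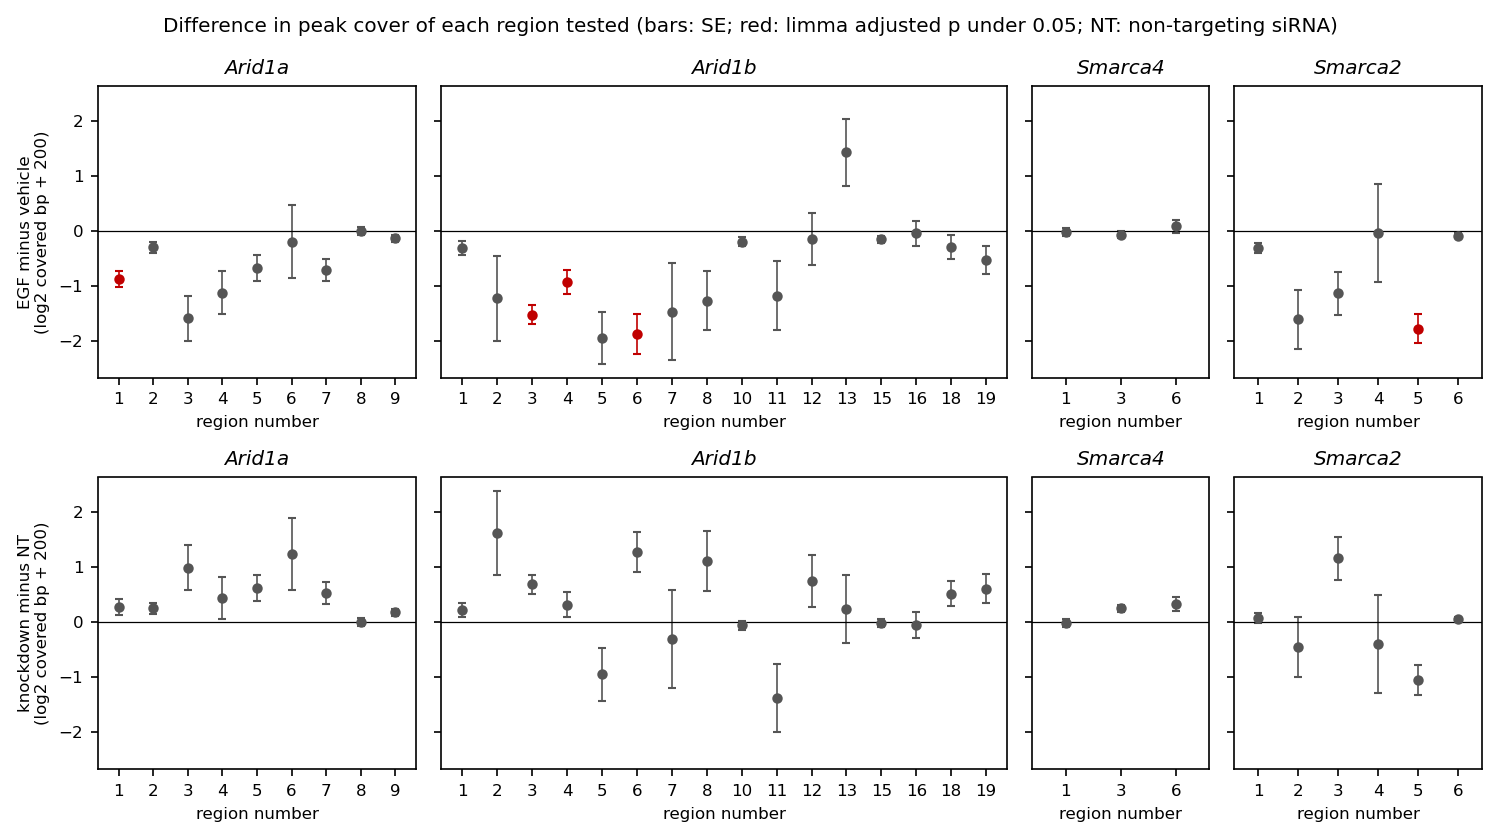
Mean EGF effect (upper row) and mean knockdown effect (lower row) on covered length (log2(bp + 200) difference, limma) of the 34 tested regions by gene (vertical axis) and region number (horizontal axis); points are fitted differences, bars their SE, and red marks an adjusted p under 0.05. The 5 passing regions are all negative for EGF, and none passes for knockdown.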

How the data were processed

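H3K27ac chromatin immunoprecipitation libraries were analysed from 1 deposited peak list per library, 8 in all, with no pooling before peak calling. The genome build was mm9, and the tools named in the submitters' processing notes, without their roles, are deepTools 3.0.2, MACS2 2.1.1.20160309.0, Bowtie2 2.3.4.2 and SAMtools. The caller's settings and any input library: not given in the sources used here. Each deposited peak has a position, a score (the whole-number part of 10 times its −log10 q), a fold enrichment (ratio to the background that the caller estimated) and a −log10 p-value and −log10 q-value. The depth of each library is unknown, and both the number and the width of peaks can rise with it. Where no peak was called the covered length is 0, and acetylation may still be there.

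Overlapping peaks were merged across lists with Python 3.11.15, pandas 2.3.3 and NumPy 2.4.6, and figures were drawn with matplotlib 3.10.9. Covered length per region was tested on log2(covered bp + 200) with limma 3.58.1 (empirical Bayes with trend) in R 4.3.3, with 4 group means and 1 spread for the 8 libraries. Regions entered the fit if 2 or more libraries had a peak there, 28146 in all, with Benjamini-Hochberg adjustment and a threshold of 0.05. Differences on this scale understate the change of short peaks. The mean EGF effect averages EGF against control and knockdown with EGF against knockdown, the mean knockdown effect averages the other pair, and the interaction is the difference between the EGF contrasts. Window totals were compared by exact permutation. The fit was tested on simulated data first. Alternatives were other pseudocounts, no filter, peaks with a −log10 q of at least 3, lists cut to their 22030 highest peaks, quantile normalization, a replicate block and each library left out.

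Regions were named by rule: the highest mean fold and the widest in each window, and every region past the threshold. Smarca4 region 6, which this rule also names, is not reported here in detail. Others named are said to have been picked after their values were seen. The windows, members and lists were chosen with earlier results of these data known. Other SWI/SNF subunits and cell type markers were not analysed here, since no mm9 annotation was used.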

Additional observations from a re-analysis of the deposited data

How the results depend on the processing

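Window cover (EGF-treated minus vehicle, or knockdown minus non-targeting, with exact permutation p) kept its direction and side of 0.05 in most settings. For EGF at Arid1b, stricter peaks gave -10641.2 bp and lists of equal length -9342.5 bp (exact p = 0.0286 each). For EGF at Smarca4 the sign turned to 46 bp per Mb covered (exact p = 0.0286), 151.5 bp with stricter peaks and 124.2 bp with equal lists. For EGF at Smarca2 the share gave -33.6 bp per Mb (exact p = 0.0571), and for knockdown at Smarca4 20.8 (p = 0.371). Assignments within states gave exact p = 0.0556 and the replicate block p = 0.125, each the smallest possible there, for the -3259.2 bp at Smarca2 and 1578.5 bp at Smarca4. For knockdown at Smarca2 stricter peaks gave 921.5 bp (exact p = 0.514). With 1 library left out, the EGF differences ran from -9639.4 to -5486.1 bp at Arid1a, -14393 to -10770.2 at Arid1b, -447.6 to 332.4 at Smarca4 and -3382.4 to -3007.8 at Smarca2, and the knockdown differences from 3558.8 to 7730.4, 2121.2 to 8467.5, 1447.1 to 1735.8 and -873.8 to 510.9. The Smarca4 EGF sign turned without either EGF (298.4, 52.8) or either knockdown library (332.4, 186.8), and the Smarca2 knockdown sign without either control (318.5, 234.2) or either knockdown with EGF library (510.9, 136.2). Member regions called by limma for EGF against control were 1, and 2 with a pseudocount of 50 bp or quantile normalization, and 0 with stricter peaks or the replicate block. For knockdown with EGF against knockdown they were 1, then 2 with a pseudocount of 50 bp, stricter peaks or equal lists and 0 with quantile normalization. For knockdown against control they were 0, then 2 with stricter peaks (Arid1a 3 and Smarca2 3). For knockdown with EGF against EGF they were 0, then 1 with a pseudocount of 50 bp or stricter peaks. For the mean EGF effect they were 5, then 2 with stricter peaks, neither among the 5 (Smarca2 3 lower and Arid1a 6 higher), and 3 with quantile normalization (Arid1b 3, Arid1b 5 and Smarca2 5). For the mean knockdown effect and the interaction they were 0, then 2 each with stricter peaks (Smarca2 3 and Arid1a 6). With 1 library left out these 7 counts ran from 0 to 3, 0 to 3, 0 to 2, 0 to 0, 2 to 8, 0 to 3 and 0 to 1. Changes in presence were 0 with stricter peaks for EGF against control. They were 8 with peaks over at least 50% of the region and 4 with stricter peaks for knockdown with EGF against knockdown, and 4 and 2 for knockdown against control. They were 0, 1 and, with equal lists, 1 for knockdown with EGF against EGF. With 1 library left out they ran from 4 to 8, 1 to 6, 0 to 5 and 2 to 5. Under quantile normalization the mean EGF effect turned to 0.06 at Arid1a 9 and 0.13 at Smarca2 6, and the mean knockdown effect to -0.06 at Smarca2 6. Libraries with the same replicate number did not deviate together in covered length (r = -0.009 to 0.032). This cannot tell whether they were prepared in pairs, which the labels do not state. The cause of these changes was not tested. The lists give no depth, so short peaks near the caller's threshold limit every count of presence.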
